A study of Mus musculus and Homo sapiens with 40 samples.

Results

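Interferon-stimulated genes are the genes that cells switch on after interferon, and they encode most of the antiviral machinery of a cell. The set described here holds 42 mouse genes of 21757 protein-coding genes in the GENCODE annotation of mm39. It was chosen by name as typical members of the response, in 5 groups by role: 11 transcription factors and regulators of signalling, 10 sensors and effectors that act on nucleic acid, 12 other antiviral effectors, 4 guanylate binding proteins and 5 genes of antigen processing. All 42 were found in the annotation under 1 symbol each. Every gene was scored for the peaks at its promoter, meaning a peak summit within 1 kb of any annotated start site, and for its distal peaks, meaning a summit over 1 kb and up to 50 kb from a start site with that gene as the nearest protein-coding one.

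The ChIP-seq data came from HPC-7, a mouse haematopoietic progenitor line. Cells had been transduced by retrovirus, with a GFP marker for sorting, to express one CEBPA isoform as a fusion to ERT2, a modified oestrogen receptor fragment. CEBPA p42 is the full-length protein and CEBPA p30 is the shorter isoform, made from a later start codon, that CEBPA-mutant leukaemia favours. According to the methods of the study, hydroxytamoxifen was given before experiments so that the fusion enters the nucleus, although the sample labels do not name it. H3K27ac, a histone mark of active promoters and enhancers, was profiled in p42-ERT2 and p30-ERT2 cells without treatment (UT) and after LPS at 100 ng/mL for 2 h, with 3 samples per group. H3K4me1, a mark of enhancers, was profiled in 2 samples of each untreated line, and the fusions in untreated cells by anti-CEBPA and by anti-ER antibodies, the latter directed at the ERT2 part, with 1 sample per line for each antibody. No line without a fusion was used here, and each isoform was carried by 1 line, so isoform and line cannot be told apart.

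Each group was represented by 1 peak list, pooled over its samples for the histone marks and from 1 library for the fusions. No difference between lists therefore has a replicate check, and neither an SD nor a p-value can be given. The number of reads behind a list is unknown from the lists. They held 107141 to 142419 peaks for H3K27ac, 134658 and 168035 for H3K4me1, 47517 and 31851 for anti-CEBPA and 23248 and 34006 for anti-ER, with p42 first in each pair. Markers of blood progenitors fitted the labelled cell. Promoter H3K27ac was present in all 4 lists for 7 of 8 markers, among them *Ptprc*, *Kit*, *Gata2* and *Tal1*, and for *Cd34* a peak overlapped the promoter window in all 4 lists. Of the markers of other cells, *Cd3e*, *Marco*, *Alb*, *Myod1* and *Neurod1* had none in any list, and *Adgre1*, a macrophage gene, had a peak of 9.48- to 12.9-fold in every list.

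As background, type I interferon acts through the receptor chains IFNAR1 and IFNAR2 and the kinases JAK1 and TYK2, which activate STAT proteins. STAT2 and its partner join IRF9 to form ISGF3, a complex that binds the interferon-stimulated response element (ISRE). LPS, a component of bacterial walls, is sensed by TLR4. Through the adaptors TICAM2 and TICAM1 and the kinases TBK1 and IKBKE it activates IRF3, which induces interferon beta, so that interferon-stimulated genes follow in many myeloid cells.

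The promoters of the set are shown first, as the LPS values below were also set beside their sequence. An ISRE core was searched as GAAA, any 2 bases and GAAA on both strands of RefSeq promoter windows, which run from 250 bases before to 50 bases after a start site. The table of windows covered 34 of the 42 genes, and 17 of these 34 (50%) held at least 1 core, against 3.94% of 17491 protein-coding genes in the table. Below are the 6 genes with a core whose promoter H3K27ac had the highest LPS ratio in p42-ERT2 cells. Each window is on the strand of the gene, 5′ to 3′, with the ISRE cores in capitals, and overlapping cores are merged. RefSeq gives the windows for build GRCm38.p6, and the coordinates are those of their only exact match on the chromosome in GRCm39 (mm39).
Stat2, chr10:128106117-128106416, plus strand: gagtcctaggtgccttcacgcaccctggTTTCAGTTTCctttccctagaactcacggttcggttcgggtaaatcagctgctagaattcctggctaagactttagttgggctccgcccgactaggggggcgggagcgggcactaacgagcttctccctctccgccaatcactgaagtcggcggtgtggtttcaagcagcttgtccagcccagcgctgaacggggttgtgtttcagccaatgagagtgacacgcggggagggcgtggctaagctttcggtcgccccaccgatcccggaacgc
Oas3, chr5:120915675-120915974, minus strand: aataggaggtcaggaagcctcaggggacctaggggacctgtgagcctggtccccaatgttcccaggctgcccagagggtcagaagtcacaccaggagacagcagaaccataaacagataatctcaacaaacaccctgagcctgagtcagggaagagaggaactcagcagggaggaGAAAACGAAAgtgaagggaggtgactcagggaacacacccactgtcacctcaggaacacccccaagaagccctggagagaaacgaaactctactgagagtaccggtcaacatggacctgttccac
Isg15, chr4:156285226-156285525, minus strand: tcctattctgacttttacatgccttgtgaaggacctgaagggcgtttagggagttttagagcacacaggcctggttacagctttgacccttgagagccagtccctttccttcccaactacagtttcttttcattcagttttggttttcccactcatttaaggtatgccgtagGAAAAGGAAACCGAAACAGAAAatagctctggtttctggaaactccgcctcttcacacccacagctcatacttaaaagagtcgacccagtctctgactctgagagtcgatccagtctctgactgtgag
Rsad2, chr12:26506402-26506701, minus strand: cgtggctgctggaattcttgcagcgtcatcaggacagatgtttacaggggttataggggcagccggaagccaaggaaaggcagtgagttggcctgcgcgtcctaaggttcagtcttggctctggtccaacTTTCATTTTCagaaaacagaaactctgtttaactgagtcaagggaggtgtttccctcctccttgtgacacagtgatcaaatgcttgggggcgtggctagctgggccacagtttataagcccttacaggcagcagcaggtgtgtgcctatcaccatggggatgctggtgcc
Ifih1, chr2:62476550-62476849, minus strand: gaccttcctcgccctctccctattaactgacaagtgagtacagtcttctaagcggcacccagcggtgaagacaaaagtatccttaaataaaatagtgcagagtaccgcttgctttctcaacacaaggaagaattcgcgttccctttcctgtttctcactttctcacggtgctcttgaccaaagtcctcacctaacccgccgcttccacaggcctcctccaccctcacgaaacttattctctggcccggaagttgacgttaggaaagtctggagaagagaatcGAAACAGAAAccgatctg
Gbp3, chr3:142265555-142265854, plus strand: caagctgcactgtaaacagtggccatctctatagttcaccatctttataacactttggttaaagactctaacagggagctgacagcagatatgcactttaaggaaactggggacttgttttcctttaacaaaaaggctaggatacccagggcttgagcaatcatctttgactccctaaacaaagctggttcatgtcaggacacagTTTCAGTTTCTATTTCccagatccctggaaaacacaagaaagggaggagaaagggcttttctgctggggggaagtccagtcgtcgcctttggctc

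The core began 222 bases before the start site in *Stat2*, 75 before it in *Oas3* and 120 before it in *Rsad2*. *Isg15* carried a run of 3 overlapping cores that began 78, 72 and 66 bases before the start site, and *Gbp3* a run of 2 that began 45 and 39 bases before it. In *Ifih1* the core lay downstream, from base 32 after the start site. The start sites of these windows lay 0 to 28 bp from a GENCODE start site of the same gene. The other genes with a core were *Ifit1*, *Ifit3*, *Oas1a*, *Gbp2*, *Gbp5*, *Gbp7*, *Bst2*, *Trim21*, *Eif2ak2*, *Ifitm3* and *B2m*. They were listed because they complete the set with a core, a choice made after the matches were seen.

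Other motifs were also compared with all genes. A GAS match, the STAT dimer element searched as TTC, any 3 bases and GAA, was found for 12 of 34 genes (35.3%) against 8.92% of all. An AP-1 match (TGA, any base, TCA) was found for 7 of 34 (20.6%) against 8.12%, and an NF-kB consensus match for 5 of 34 (14.7%) against 5.53%. A CEBP match (TT, any 2 bases, GCAA) was found for 2 of 34 (5.88%), *Gbp3* and *Samhd1*, against 11.7% of all genes. Of 5 motifs, 4 were thus found at a larger share of these promoters than of all promoters, and the CEBP motif at a smaller one. A match describes letters in a window and not a bound site.

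Untreated cells already carried H3K27ac at most promoters of the set. In p42-ERT2 cells 33 of 42 genes (78.6%) had a promoter peak, against 52% of all protein-coding genes. In p30-ERT2 cells the count was again 33, against 51.9% of all. The same 32 genes had one in both untreated lines. The peaks were of moderate height. The fold enrichment of a peak over its local background, as deposited, had a median of 13.7 over the set in p42-ERT2 cells against 31.3 over all genes with a promoter peak, and of 13.3 against 27.4 in p30-ERT2 cells. Within the set it ran from 2.38 at *Irf7* to 46.3 at *Eif2ak2*, the RNA-activated kinase PKR, in p42-ERT2 cells, and from 2.62 at *Gbp7* to 54.5 at *Irf9* in p30-ERT2 cells.

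After LPS, 36 of 42 genes (85.7%) had a promoter peak in each line, against 51.7% of all genes in p42-ERT2 and 53.3% in p30-ERT2 cells. In all 4 lists together, 32 genes always had one and 4 never did. Those 4 were *Oas1a*, a sensor of double-stranded RNA, *Gbp5*, a guanylate binding protein, *Ifi44*, and *Zbp1*, a sensor of Z-form nucleic acid. A peak at or under the threshold of the caller would not be listed, so that an absent peak is not an absent mark. Among 12031 genes with promoter H3K27ac in any list, 93.5% to 96.4% had a peak in a given list. Of the 38 genes of the set with one in any list, 33 had it untreated and 36 after LPS in each line.

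The change with LPS was measured as the log2 ratio of the fold enrichments of the strongest promoter peak, LPS over UT, less the median over all genes with a peak in both lists. That median was −0.21 in p42-ERT2 and 0.25 in p30-ERT2 cells, and it was subtracted because it moves with the depth and yield of a list. A ratio of at least 1.5-fold in either direction was counted as called. In p42-ERT2 cells 20 of 32 genes with both peaks (62.5%) were called higher with LPS, against 5.62% of all genes, and none was called lower, against 2.45%. In p30-ERT2 cells 9 of 33 (27.3%) were called higher, against 3.19% of all genes, and none lower, against 3.84%. Ratios above 0 were found for 30 of 32 genes in p42-ERT2 and 29 of 33 in p30-ERT2 cells, with medians of 0.72 and 0.36. Without subtracting the median, the counts called higher were 11 of 32 and 19 of 33, against 2.25% and 12.5% of all genes, so the order of the lines turns with the centring while both shares stay above those of all genes.

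**Figure D1:**
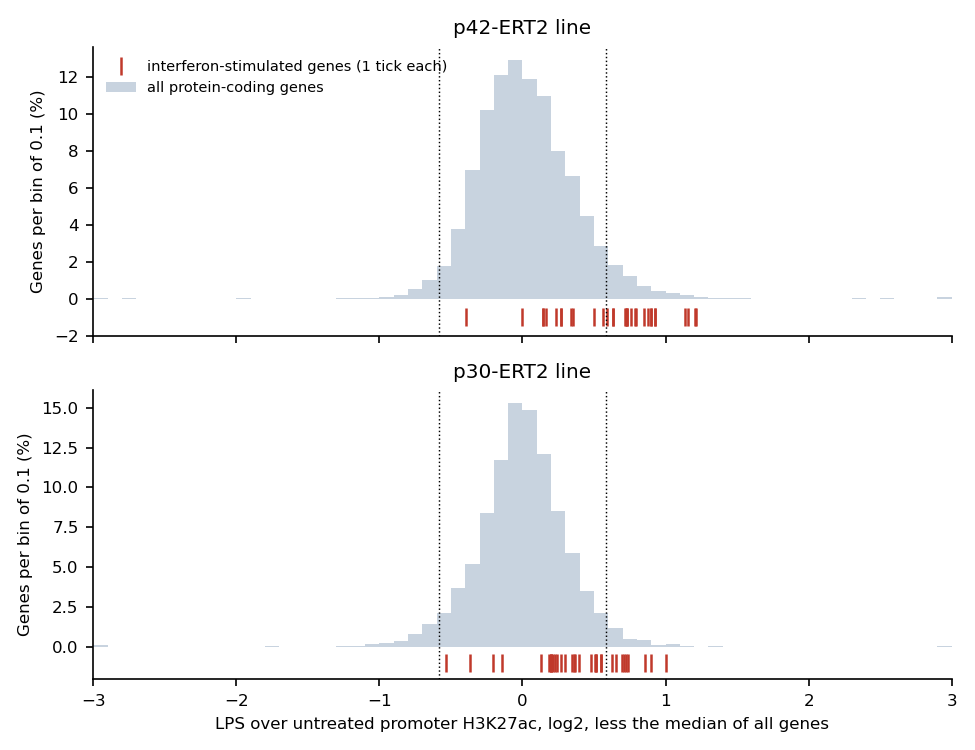
LPS over untreated ratio of promoter H3K27ac in p42-ERT2 (top) and p30-ERT2 (bottom) cells, on the log2 scale after subtracting the median of all genes. Bars give the percent of all protein-coding genes per bin, with values beyond the axis counted in the end bins, red ticks are single interferon-stimulated genes, and dotted lines mark 1.5-fold. The ticks lie mostly right of 0 in both lines, with 20 of 32 and 9 of 33 past the right dotted line.

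Weak peaks were called more often than strong ones, and the set holds many weak peaks. Among genes below the median untreated fold enrichment of all genes, 19 of 28 genes of the set were called higher in p42-ERT2 cells, against 10.2% of all genes in that range. In p30-ERT2 cells 9 of 24 were, against 5.87%. At or above that median the counts were 1 of 4 and 0 of 9, against 1.02% and 0.522%. Measured instead by the length of promoter covered by peaks, 8 genes of the set were called higher in p42-ERT2 and 5 in p30-ERT2 cells, against 2.26% and 5.16% of all genes.

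Genes sharing a peak are not independent. *Tap1* and *Psmb9* share a bidirectional promoter and its peak, as do *Parp9* and *Dtx3l*, and the 20 called genes in p42-ERT2 cells rest on 18 peaks. The 9 called genes in p30-ERT2 cells rest on 9. Several genes lie in clusters of related genes (*Ifit*, *Oas*, *Gbp* and *Mx* genes), and how alike their sequences are was not measured. The aligner was run with its default reporting, which places a read with several equal matches at one of them. The sources used here name no later filter for such reads, so levels at any closely similar copies are uncertain.

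Among the factors of the pathway, *Stat2*, the ISGF3 subunit specific to type I and III interferon, had the highest ratio in p42-ERT2 cells. Its promoter peak stood at 15.7-fold untreated and 31.5-fold with LPS in p42-ERT2, and at 19-fold and 37.4-fold in p30-ERT2 cells. Both pairs move the same way, by a centred log2 ratio of 1.21 and 0.72. *Irf9*, the DNA-binding subunit of ISGF3, was already among the highest peaks of the set, at 44.2-fold untreated and 54.2-fold with LPS in p42-ERT2 and at 54.5-fold and 71.1-fold in p30-ERT2 cells. Its ratios, 0.50 and 0.13, did not reach 1.5-fold. *Irf7*, the factor that amplifies interferon production, had weak peaks of 2.38-fold and 3.41-fold in p42-ERT2 and of 3.54-fold and 3.66-fold in p30-ERT2 cells. The ratio was called in p42-ERT2 cells at 0.73 and was −0.20 in p30-ERT2 cells, and in 3 of the 4 lists its summit lay 1261 to 2039 bp inside the gene, at other start sites than its 5′ end.

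*Irf1*, a factor induced by interferon gamma and by NF-kB, went the other way. The peak stood at 43.9-fold untreated and 28.9-fold with LPS in p42-ERT2, and at 49.5-fold and 40.6-fold in p30-ERT2 cells. Centred ratios were −0.40 and −0.54, short of 1.5-fold in both lines, and *Irf1* was the lowest gene of the set in each. *Mx1*, an antiviral GTPase named here after its values were seen, came next, from 5.11-fold to 4.42-fold in p42-ERT2 and from 7.61-fold to 7.04-fold in p30-ERT2 cells, with ratios of −0.0033 and −0.36. Over all 11 factors and regulators, 10 had a ratio, 7 were called higher in p42-ERT2 and 3 in p30-ERT2 cells, with medians of 0.63 and 0.20. *Parp14*, an ADP-ribosyltransferase, was among those called in both, with 9.92-fold and 19.2-fold in p42-ERT2 and 12.5-fold and 24.1-fold in p30-ERT2 cells. *Trim25*, the ubiquitin ligase that acts in RNA sensing, went from 29.1-fold to 43.8-fold in p42-ERT2 and from 24.5-fold to 41.6-fold in p30-ERT2 cells, which was called in p42-ERT2 cells with a ratio of 0.80 and was 0.51 in the other line.

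Sensors and effectors acting on nucleic acid were partly without a usable peak. Of 10 genes, 6 had a ratio, and 3 of these were called higher in p42-ERT2 and 1 in p30-ERT2 cells, with medians of 0.52 and 0.32. *Oas3*, a synthase of the 2′-5′ oligoadenylate that activates RNase L, stood at 3.91-fold untreated and 7.84-fold with LPS in p42-ERT2, and at 5.12-fold and 9.95-fold in p30-ERT2 cells. It was called in both lines, with ratios of 1.21 and 0.71. *Ifih1*, which encodes the RNA sensor MDA5, stood at 7.83-fold and 12.6-fold in p42-ERT2 and at 7.87-fold and 13.7-fold in p30-ERT2 cells. Its ratio of 0.90 was called in p42-ERT2 cells, and that of 0.55 in p30-ERT2 cells fell just short of 1.5-fold.

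The other antiviral effectors were called most often in p42-ERT2 cells, at 6 of 8 genes with a ratio out of 12, and at 3 of 9 in p30-ERT2 cells. Their median ratios were 0.87 and 0.48. *Isg15*, a ubiquitin-like modifier, stood at 9.95-fold and 16.4-fold in p42-ERT2 and at 10.9-fold and 21.6-fold in p30-ERT2 cells, with ratios of 0.93 and 0.74. *Mx2*, a dynamin-like antiviral GTPase, had a peak of 13.7-fold and 26.2-fold in p42-ERT2 and of 17.5-fold and 38.8-fold in p30-ERT2 cells, with ratios of 1.14 and 0.90. Both genes were thus called in each line.

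*Rsad2*, which encodes viperin, went from 3.63-fold to 5.99-fold in p42-ERT2 and from 5.12-fold to 8.03-fold in p30-ERT2 cells, with ratios of 0.93 and 0.40. *Ifit2*, of the family that recognises foreign RNA ends, went from 2.52-fold to 4.06-fold and from 3.81-fold to 5.3-fold, with ratios of 0.90 and 0.23. *Xaf1*, a pro-apoptotic gene, went from 6.29-fold to 9.83-fold and from 6.04-fold to 10.5-fold, with ratios of 0.85 and 0.55. All 3 were called in p42-ERT2 cells and not in p30-ERT2 cells, a difference that was not tested. For *Rsad2* and *Ifit2* the untreated level was lower in the p42 line than in the p30 line.

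Guanylate binding proteins attack intracellular pathogens and their vacuoles. Of the 4 genes, 3 had a ratio, and 2 were called higher in each line. *Gbp3* was called in both, with 8.25-fold and 13.1-fold in p42-ERT2 and 7.48-fold and 17.8-fold in p30-ERT2 cells and ratios of 0.88 and 1.00, the latter the highest of the set in that line. *Gbp2* was called in p42-ERT2 cells at 0.71, from 12.1-fold to 17.3-fold, and had a ratio of 0.36 in p30-ERT2 cells, from 10.2-fold to 15.7-fold. *Gbp7* was called in p30-ERT2 cells at 0.86, from 2.62-fold to 5.67-fold, and had a ratio of 0.34 in p42-ERT2 cells, from 3.49-fold to 3.84-fold. *Gbp7* was the only gene of the set with a ratio in both lines that was called in p30-ERT2 and not in p42-ERT2 cells, a difference that was not tested.

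In antigen processing, all 5 genes had a ratio above 0 in both lines, and only the *Tap1* and *Psmb9* pair was called, in p42-ERT2 cells. *Tap1* transports peptides into the endoplasmic reticulum and *Psmb9* is a subunit of the immunoproteasome. Their shared peak stood at 22.9-fold and 32.9-fold in p42-ERT2 and at 29.5-fold and 50-fold in p30-ERT2 cells. The medians over the 5 genes were 0.35 in p42-ERT2 and 0.27 in p30-ERT2 cells.

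**Figure D2:**
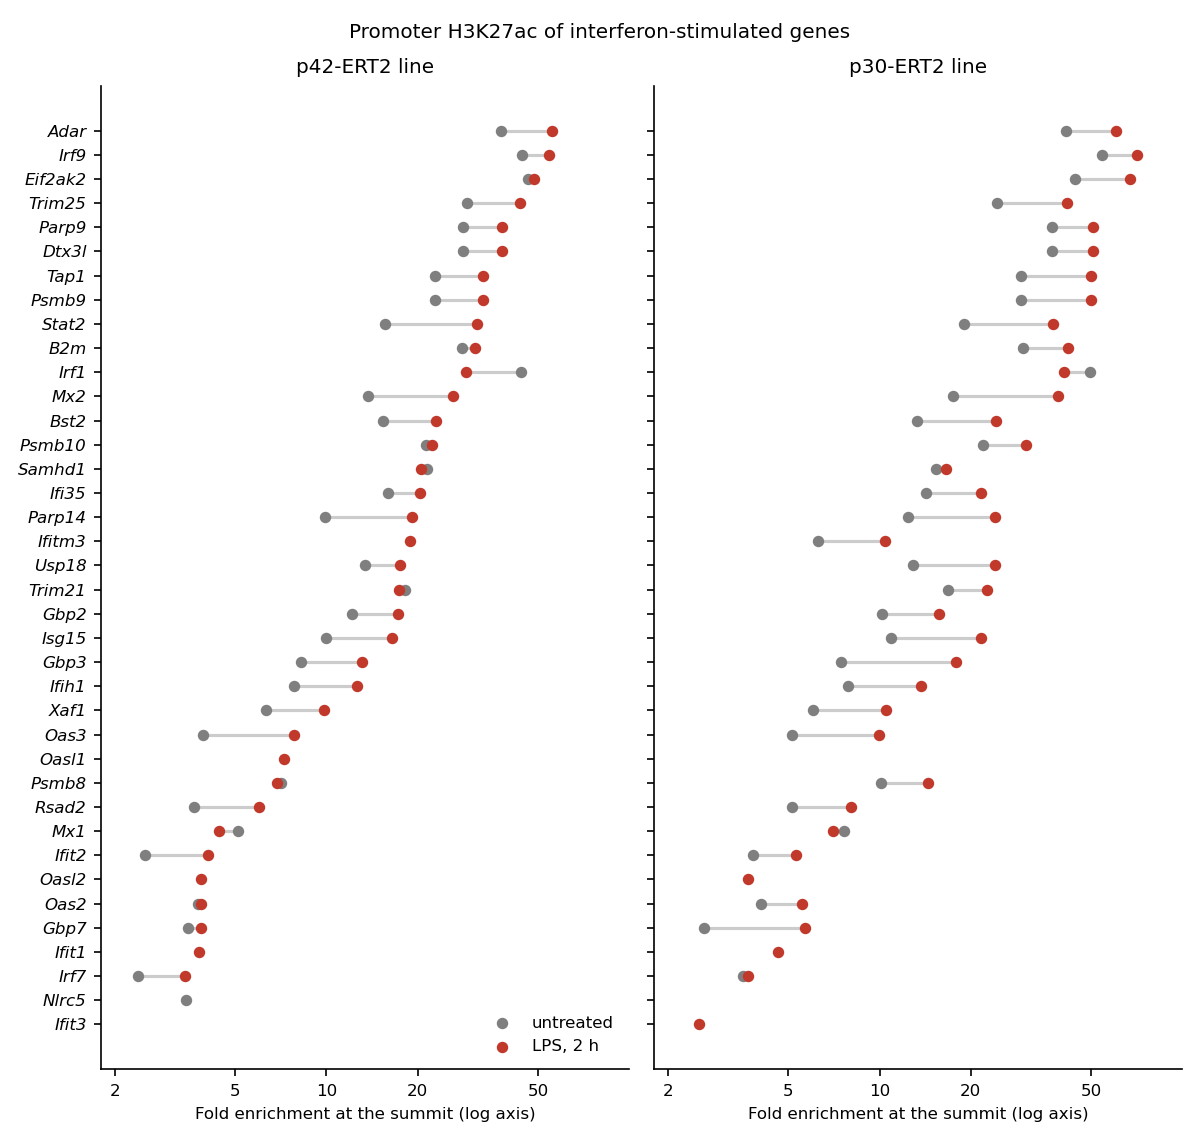
Fold enrichment of the strongest promoter H3K27ac peak of each of the 38 interferon-stimulated genes with one in any list, in p42-ERT2 (left) and p30-ERT2 (right) cells, on a log axis. Grey points are untreated, red points are after LPS for 2 h, and a missing point means no summit within 1 kb. In most rows the red point lies right of the grey one, and at *Irf1* and *Mx1* it lies left of it in both lines.

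Some promoters had a summit in only one of the lists of a line. In p42-ERT2 cells 4 of 9 genes without an untreated summit gained one with LPS, against 2.53% of all genes without one. In p30-ERT2 cells 3 of 9 did, against 4.8%. Among genes without one but with promoter H3K27ac in any list, the shares were 37.1% in p42-ERT2 and 68.7% in p30-ERT2 cells. In each line the 9 include the 4 genes with no promoter H3K27ac in any list. *Ifit1* and *Oasl2* gained a summit in both lines, at 3.78-fold and 3.84-fold in p42-ERT2 and at 4.61-fold and 3.66-fold in p30-ERT2 cells, and *Ifit3* in p30-ERT2 cells at 2.54-fold. For these no untreated peak touched the window of 1 kb. The other gains, of *Oasl1* at 7.22-fold and *Ifitm3* at 18.9-fold in p42-ERT2 cells, were shifts of a summit, since a peak already overlapped the window in every list. *Ifitm3*, a membrane protein that blocks viral entry, had a summit in p30-ERT2 cells in both lists, at 6.25-fold and 10.4-fold. *Nlrc5*, the transactivator of MHC class I genes, was the only loss, with a peak of 3.43-fold in untreated p42-ERT2 cells and none in the other lists. Losses were 1 of 33 in p42-ERT2 and 0 of 33 in p30-ERT2 cells, against 2.99% and 1.83% of all genes.

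The ISRE core was then set beside the LPS ratio. In p42-ERT2 cells 8 of 12 genes of the set with a core and 8 of 14 without one were called higher, with median ratios of 0.83 and 0.68. In p30-ERT2 cells the counts were 6 of 13 and 0 of 14, with medians of 0.55 and 0.25. Of the called genes in p30-ERT2 cells, the 3 outside these counts (*Mx2*, *Parp14* and *Usp18*) had no window in the table. Among all other protein-coding genes, 8.79% of 307 with a core and 5.11% of 8272 without one were called higher in p42-ERT2 cells, and 3.54% of 311 and 3% of 8353 in p30-ERT2 cells. The split by core was added after the LPS ratios were known, and no test was made of it.

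**Figure D3:**
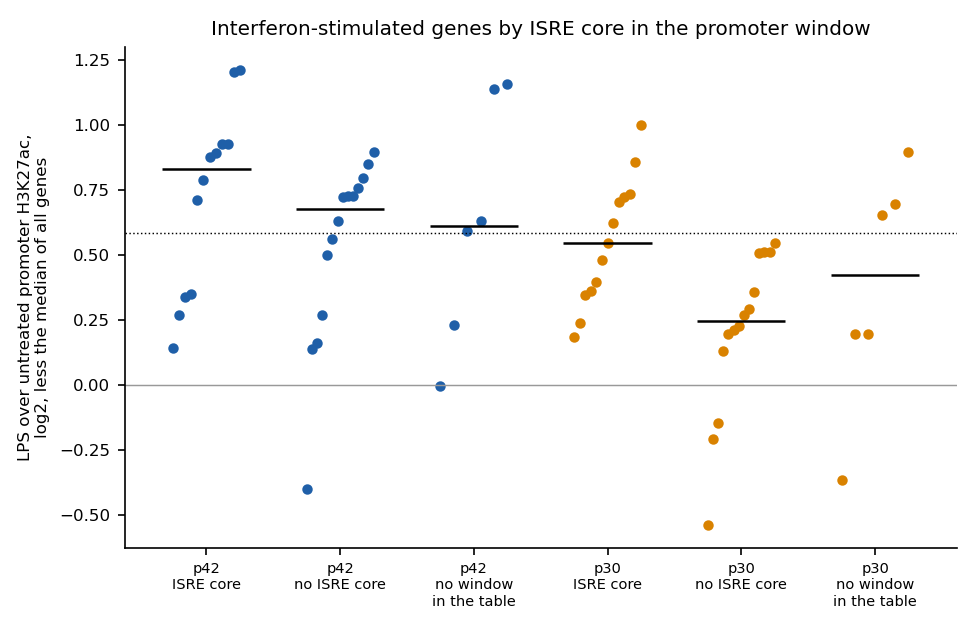
LPS over untreated promoter H3K27ac on the log2 scale, less the median of all genes, for interferon-stimulated genes with an ISRE core in the RefSeq window, without one, or without a window in the table. Blue points are p42-ERT2 and orange points p30-ERT2 cells, bars are medians, and the dotted line marks 1.5-fold. In p30-ERT2 cells 6 of 13 genes with a core and 0 of 14 without one lie above that line.

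Both lines were also compared directly. Without treatment, the centred log2 ratio of p30 over p42 promoter H3K27ac had a median of 0.32 over 32 genes of the set, and 27 of 32 were above 0. At 1.5-fold, 5 of 32 (15.6%) were called higher in p30-ERT2 cells, against 5.23% of all genes, and none lower, against 4.03%. They were *Ifit2*, *Irf7*, *Mx1*, *Psmb8* and *Rsad2*, and *Mx1* and *Psmb8* are named here after their values were seen. *Mx1* stood at 5.11-fold and 7.61-fold in the untreated lines and *Psmb8*, an immunoproteasome subunit, at 7.09-fold and 10.1-fold. Uncentred, 1 gene was called higher, against 2.57% of all genes. Without centring, the share of the set thus lay near that of all genes. After LPS the median was 0.11 over 35 genes. *Psmb8* was the only one called higher, against 2.95% of all genes, and *Ifitm3* and *Samhd1* were called lower, against 6.17%. The *Ifitm3* call used the p42-ERT2 peak whose summit entered the window of 1 kb only with LPS.

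The LPS ratio of p42-ERT2 cells and the untreated ratio of p30 over p42 share the list of untreated p42-ERT2 cells, so that a low value there raises both. The LPS ratio was larger in p42-ERT2 than in p30-ERT2 cells for 26 of 32 genes of the set, against 48% of all genes, with a median difference of 0.26 on the log2 scale. Uncentred, it was larger in p42-ERT2 cells for 7 of 32, against 10.5% of all genes. A difference of at least 1.5-fold was found for 2 genes (6.25%), *Ifit2* at 0.67 and *Irf7* at 0.93, against 6.74% of all genes. At that size, the share of the set lay near that of all genes. The genes called higher were 8 in both lines, 12 in p42-ERT2 and 1 in p30-ERT2 cells only, among 32 with a ratio in both. Over all genes they were 88, 474 and 254, among 10711.

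Other genes of the interferon pathway, were compared as a list of 19 receptors, kinases, adaptors and factors. Promoter H3K27ac was present for 18 of them in every list, and *Ifnb1*, which encodes interferon beta, had none in any. Of these 18, 4 were called higher with LPS in p42-ERT2 and 2 in p30-ERT2 cells, against 5.62% and 3.19% of all genes, and 0 and 1 were called lower, against 2.45% and 3.84%. Their median LPS ratios were −0.02 and 0.04. The p30 over p42 ratio of the pathway genes had a median of 0.18 untreated and 0.20 with LPS, against 0.32 and 0.11 for the set. It was above 0 for 14 of these 18 genes in each case. *Tyk2*, a kinase of the interferon receptor, and *Ikbke*, a kinase upstream of IRF3, were called in both lines. *Tyk2* stood at 15-fold and 26.7-fold in p42-ERT2 and at 16.8-fold and 30.7-fold in p30-ERT2 cells. *Ikbke* stood at 30.9-fold and 40.2-fold in p42-ERT2 and at 28-fold and 58.4-fold in p30-ERT2 cells. An ISRE core was found in the windows of 2 of 18 pathway genes.

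Away from the promoters, the shares of the set lay closer to those of all genes. A distal H3K27ac peak was present for 23 genes (54.8%) in untreated and 24 (57.1%) in LPS-treated p42-ERT2 cells, against 53.1% and 50.9% of all genes. In p30-ERT2 cells the counts were 24 (57.1%) and 28 (66.7%), against 53.8% and 54.4%. Among genes with promoter H3K27ac in any list the shares were 77.6% to 81.3%, above those of the set. *Irf1* had the most distal H3K27ac peaks, between 19 and 30 per list, and *Trim25*, with 13 to 19, and *Samhd1*, with 13 to 17, also had many. The *Ifit* genes had none in any list, and *Isg15* had none.

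H3K4me1, measured in untreated cells only, was present at 19 promoters (45.2%) in p42-ERT2 and 22 (52.4%) in p30-ERT2 cells, against 29.9% and 35% of all genes and 51.4% and 58.7% of genes with promoter H3K27ac. Distal H3K4me1 was found near 22 (52.4%) and 25 (59.5%) genes of the set, against 49.3% and 52.5%. Its promoter peaks in the set stood at 2.34- to 5.73-fold. Their medians were 3.42 in p42-ERT2 and 3.97 in p30-ERT2 cells, against 3.74 and 3.76 over all genes with a promoter peak. *Irf1* again led, with 38 and 35 distal peaks.

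With LPS, 12 genes of the set (28.6%) gained a distal H3K27ac peak in p42-ERT2 cells and 12 lost one, against 29.3% and 40.6% of all genes. In p30-ERT2 cells 22 (52.4%) gained and 14 (33.3%) lost one, against 39.9% and 36.5%. Among genes with promoter H3K27ac in any list the shares were higher than in the set. They were 47.4% gained and 65.1% lost in p42-ERT2, and 62.6% and 58.9% in p30-ERT2 cells. Most gained and lost peaks near genes of the set were weak. The best-ranked gained peak of a gene stood at 2.24- to 4.49-fold in all cases but *Parp14*. Peaks at overlapping places were gained in both lines near 5 genes (*Bst2*, *Irf1*, *Parp14*, *Rsad2* and *Usp18*), at 7 places. Such peaks were found for 8.56% of all genes and 13.9% of genes with promoter H3K27ac in any list. *Parp14* had 2 of them, upstream, at chr16:35708230-35708690 and chr16:35709455-35710730, with 5.52-fold and 5.38-fold in p42-ERT2 and 3.9-fold and 5.82-fold in p30-ERT2 cells.

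Distal peaks present before and after LPS were compared in height, an addition made after the data were seen. Near genes of the set, 18 of 93 such peaks (19.4%) were called higher in p42-ERT2 and 29 of 120 (24.2%) in p30-ERT2 cells, against 10% and 10.7% of all such peaks. Lower calls were 4 in each line (4.3% and 3.33%), against 6.27% and 4.81%. Several peaks can belong to 1 gene, so these counts are not independent.

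**Figure D4:**
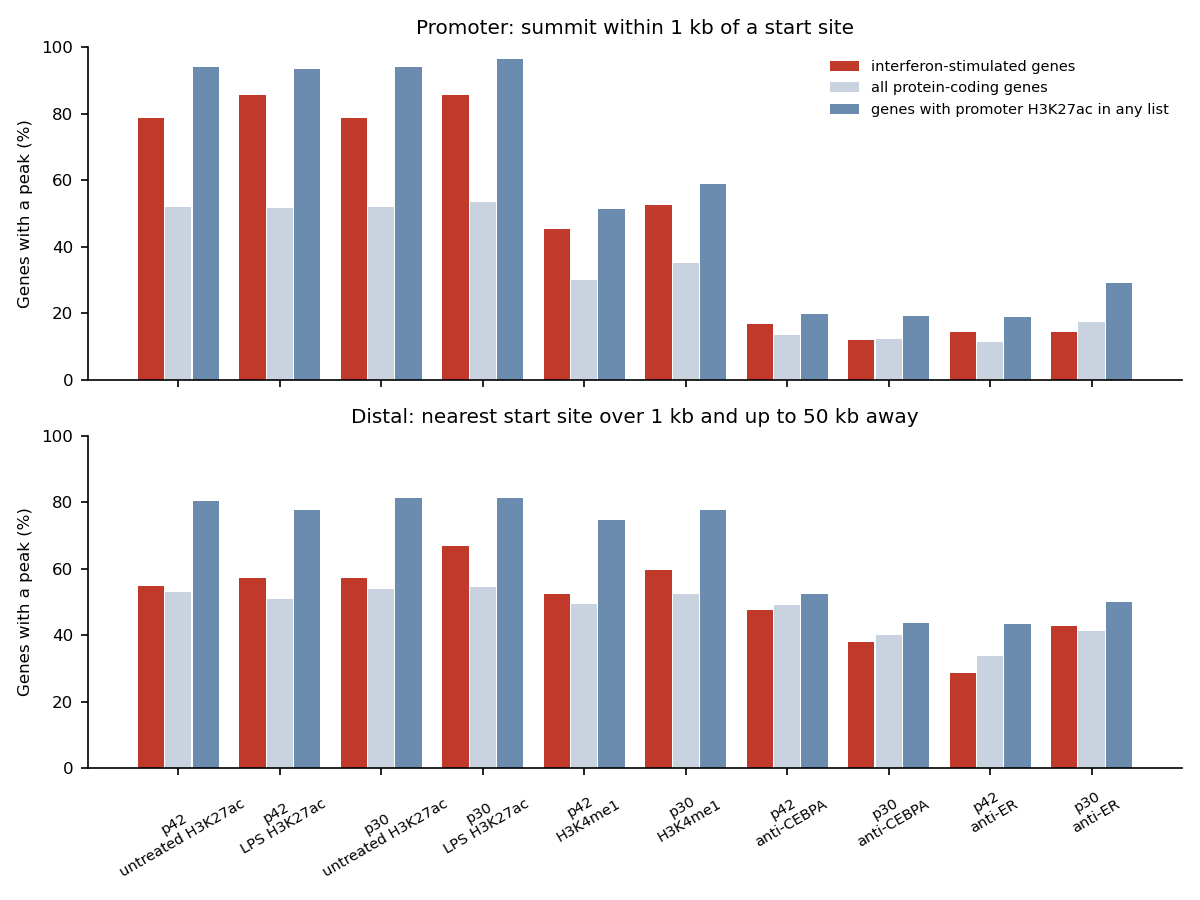
Percent of genes with a promoter peak (top) or a distal peak (bottom) in each of the 10 lists, for the 42 interferon-stimulated genes (red), all protein-coding genes (light) and genes with promoter H3K27ac in any list (dark). The red bars for promoter H3K27ac stand at 78.6% and 85.7%, above the light bars, and those for anti-CEBPA and anti-ER lie near the light bars.

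CEBPA fusions were found at promoters of the set about as often as at those of all genes. Anti-CEBPA sites were present at 7 promoters (16.7%) in p42-ERT2 and 5 (11.9%) in p30-ERT2 cells, against 13.4% and 12.2% of all genes. Anti-ER sites were present at 6 (14.3%) in each line, against 11.3% and 17.3%. Among genes with promoter H3K27ac in any list, which 38 of the 42 genes belong to, the shares were higher than in the set, at 19.8% and 19% for anti-CEBPA sites, then 18.9% and 29.1% for anti-ER sites, with p42 first. Sites with both antibodies were at 5 promoters in p42-ERT2 and 4 in p30-ERT2 cells, against 8.76% and 10.1%. Distal anti-CEBPA sites were near 20 (47.6%) and 16 (38.1%) genes, against 49% and 40.1%, and distal anti-ER sites near 12 (28.6%) and 18 (42.9%), against 33.9% and 41.3%. Among genes with promoter H3K27ac in any list the distal shares were 52.3% and 43.8% for anti-CEBPA, then 43.3% and 50% for anti-ER sites. In any list and at any place, 31 of 42 genes had a site and 11 had none. A site was found for 63.4% of all genes and 71.8% of genes with promoter H3K27ac in any list. Genes of the set with a promoter site in any list had lower median LPS ratios than the others. The medians were 0.49 over 8 genes against 0.73 over 24 in p42-ERT2 and 0.25 over 8 against 0.48 over 25 in p30-ERT2 cells. Over all genes they were also lower with a site, −0.026 against 0.013 in p42-ERT2 and −0.035 against 0.018 in p30-ERT2 cells. For *Stat2* and *Adar*, the site and the H3K27ac peak lay at different start sites. This is a description without a test.

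Promoter sites present in all 4 fusion lists were those of *Gbp2*, *Samhd1* and *Trim21*. These 3 are shown because they carried the most repeatable fusion binding at promoters of the set. Each sequence covers 60 bases to either side of the anti-CEBPA summit in p42-ERT2 cells, on the plus strand of mm39, with CEBP matches (TT, any 2 bases, GCAA, on either strand) in capitals.
Gbp2, chr3:142326057-142326177: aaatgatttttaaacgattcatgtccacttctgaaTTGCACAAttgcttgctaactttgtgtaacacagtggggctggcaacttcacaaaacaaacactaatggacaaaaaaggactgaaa
Samhd1, chr2:156977161-156977281: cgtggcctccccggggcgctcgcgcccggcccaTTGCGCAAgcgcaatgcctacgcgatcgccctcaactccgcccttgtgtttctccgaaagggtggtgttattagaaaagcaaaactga
Trim21, chr7:102213826-102213946: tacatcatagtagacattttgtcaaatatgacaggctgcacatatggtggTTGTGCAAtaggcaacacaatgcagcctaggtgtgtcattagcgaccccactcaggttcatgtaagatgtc

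*Gbp2* had the best-ranked of these sites in each list, 232 bp upstream of the start site. It stood at 25-fold with anti-CEBPA and 20.4-fold with anti-ER in p42-ERT2 and at 15.4-fold and 14.4-fold in p30-ERT2 cells. It was within the first 4.18% to 6.51% of each list by rank. *Samhd1*, a dNTP hydrolase that restricts viruses, had a site at its start site with 7.45-fold and 9.84-fold in p42-ERT2 and 15.6-fold and 13.9-fold in p30-ERT2 cells. *Trim21*, the cytosolic antibody receptor, had one at 11-fold and 6.72-fold in p42-ERT2 and 13-fold and 7.98-fold in p30-ERT2 cells. *Samhd1* and *Trim21* were not called with LPS in either line, with ratios of 0.14 and 0.14 in p42-ERT2 and −0.14 and 0.19 in p30-ERT2 cells.

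*Gbp3* and *Stat2* carried sites with both antibodies in p42-ERT2 cells, and *Adar*, the RNA-editing enzyme, in p30-ERT2 cells. The site of *Gbp3* stood at 5.74-fold with anti-CEBPA and 7.2-fold with anti-ER, and that of *Stat2* at 7.42-fold and 7.2-fold. They lay 1675 bp and 13899 bp inside the genes, at start sites of shorter transcripts, and not at the promoter windows shown above. The site of *Adar* stood at 6.32-fold with anti-CEBPA and 6.72-fold with anti-ER, 488 bp from the 5′ end of the gene, whereas the strongest promoter H3K27ac peak of *Adar* lay 15892 to 16006 bp from that end, at another start site. When only the 5′ end of each gene counted, promoters with an anti-ER site in p42-ERT2 cells fell by number from 6 to 3. The share of all genes fell from 11.3% to 6.73%.

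Within 100 bp of the summit, 4 of 7 promoter and 14 of 30 distal anti-CEBPA sites of the set in p42-ERT2 cells held a CEBP match, against 50.7% of all sites of that list. In p30-ERT2 cells 4 of 5 and 11 of 21 did, against 53.1%. Of distal anti-CEBPA sites, 15 of 30 in p42-ERT2 and 15 of 21 in p30-ERT2 cells overlapped an anti-ER site of the same line, and 10 were found in all 4 lists, near 7 genes. The share over all anti-CEBPA sites is not given here. The anti-ER list held 23248 peaks in p42-ERT2 and 34006 in p30-ERT2 cells, so these counts do not compare the lines.

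*Ifitm3* had the most distal sites with both antibodies, 4 in each line, from 2296 to 12702 bp downstream of a start site and past the 3′ end of the gene. The farthest of them reached 31.4-fold in p42-ERT2 and 53.5-fold in p30-ERT2 cells with anti-ER, and 11.8-fold and 16.8-fold with anti-CEBPA. *Oasl1* and *Rsad2* had 2 such sites each in p42-ERT2 cells and none in p30-ERT2 cells. At 1 of the 2 places of each gene, however, p30-ERT2 cells had a site with 1 antibody. It was an anti-CEBPA site of 11.6-fold at *Oasl1*, against 10.2-fold in p42-ERT2 cells, and an anti-ER site of 5.21-fold at *Rsad2*. *Gbp5* had 1 site with both antibodies in p42-ERT2 and 2 in p30-ERT2 cells. *Ifih1*, *Eif2ak2*, *Ifit1*, *Trim25* and *Nlrc5* had 1 in each line and are named after their values were seen. That of *Ifih1*, 24180 bp into the gene, stood at 25.9-fold and 24.7-fold with anti-CEBPA in p42-ERT2 and p30-ERT2 cells, and that of *Eif2ak2* at 23.1-fold and 12-fold. Neither overlapped an H3K27ac peak of the untreated lines. All fusion lists came from untreated cells, so binding after LPS was not measured.

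**Figure D5:**
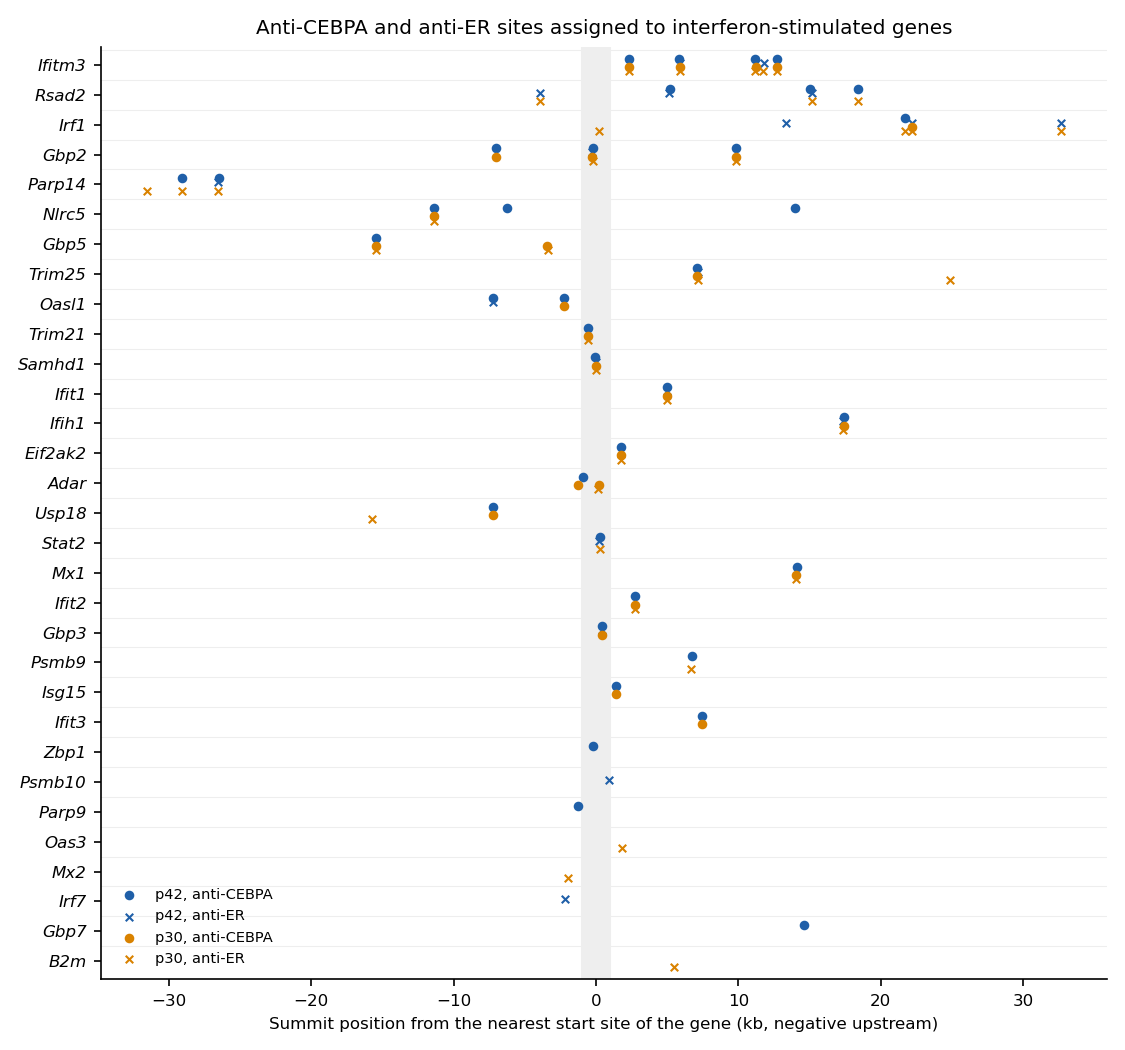
Position of each anti-CEBPA (circles) and anti-ER (crosses) summit assigned to an interferon-stimulated gene, in kb from the nearest start site of the gene, in p42-ERT2 (blue) and p30-ERT2 (orange) cells. The grey band is the promoter window of 1 kb to either side. The 31 genes with a site are shown, and *Gbp2*, *Samhd1* and *Trim21* have all 4 marks within the band.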

How the data were processed

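The 10 peak lists of mouse HPC-7 cells were used. As the study describes, the authors trimmed reads with Trim Galore 0.6.6, aligned them to mm39 with Bowtie2, left out duplicates found by Picard and called peaks with MACS2 relative to input. The anti-CEBPA lists lack the NoModel mark in the name of the others, so settings of the caller possibly differed. Each deposited list gives the authors' fold enrichment at the summit, a ratio over the local background, and the authors' −log10 p-value and −log10 q-value, with no q-value above 0.05. The list of human KO-52 cells was not used here, and 1 marker gene is not reported here.

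The genes, role groups, pathway list, markers and motifs were chosen with earlier results of these data known. Peaks on chromosomes 1 to 19, X and Y were assigned to GENCODE M39 start sites of 21757 protein-coding genes. Of several promoter peaks, the one with the highest fold was taken. Ratios were centred on the median of all genes with both peaks and called at 1.5-fold. A distal peak was gained or lost when no peak of the other list overlapped it by 1 bp. With 1 list per group no test was made. Motifs were searched in RefSeq windows of GRCm38.p6. Named genes were *Irf1*, *Irf7*, *Irf9* and *Stat2*, the 12 largest LPS calls by the higher ratio of the 2 lines, promoter peaks that appeared or disappeared, promoter sites with both antibodies, the 6 genes with most distal sites with both antibodies, genes without promoter H3K27ac, and pathway genes called in both lines. Alternatives were other windows, any overlap, the 5′ end only, a stricter q-value, equal numbers of peaks, no centring, covered length and 2-fold. The scoring was tested on simulated peaks. Python 3.11.15 was used.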

Additional observations from a re-analysis of the deposited data

Results flagged for a closer look

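*Irf7* was the one gene of the set called in one comparison and of opposite sign in its counterpart. Its LPS over untreated promoter H3K27ac had a centred log2 ratio of 0.73 in p42-ERT2 and −0.20 in p30-ERT2 cells. Its p30 over p42 ratio was 0.76 untreated and −0.17 with LPS. The difference was not tested, since each value comes from 1 pair of lists. The peaks were weak (2.38- to 3.66-fold), and their summits lay at different start sites of the gene. Uncentred, the fold enrichment was higher with LPS in both lines.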

How the results depend on the processing

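No replicate could be left out, because each list was pooled or came from 1 library, and no paired analysis was possible because the result comes from no test. Of 134 counts recomputed under an alternative, 101 stayed within 1.5 times the reported count. The LPS count called higher in p42-ERT2 cells was 20 and became 11 without centring, 8 by covered length and 4 at 2-fold. Over all genes the shares under these settings were 2.25%, 2.26% and 1.05%. In p30-ERT2 cells the count was 9 and became 19, 5 and 1, against 12.5%, 5.16% and 0.577% of all genes. In p42-ERT2 cells 1 gene was called lower without centring and 1 by covered length, against 8.92% and 5.53% of all genes. For p30 over p42 untreated, the 5 genes called higher became 1 without centring, 8 by covered length and 0 at 2-fold. Over all genes these shares were 2.57%, 4.6% and 1.15%. Lower calls were 2 by covered length and 1 with a window of 2.5 kb, against 4.83% and 4.28% of all genes. With LPS, the 1 gene called higher became 4 without centring, 3 by covered length, 0 at 2-fold and 2 with 2.5 kb. The shares of all genes were 12.2%, 7.76%, 0.562% and 3.16%. The 2 genes called lower became 1 under each of these 4 settings, against 2.5%, 2.34%, 1.62% and 6.64% of all genes. With a window of 2.5 kb, promoters with an anti-CEBPA site numbered 12 in p42-ERT2 and 9 in p30-ERT2 cells. The shares of all genes were 22.7% and 19.2%. Promoters with an anti-ER site numbered 10 in each line, against 17.7% and 25%, and those with both antibodies 8 in p42-ERT2 cells, against 14.6%. Counting only the 5′ end gave 3 with anti-ER and 3 with both in p42-ERT2 cells, against 6.73% and 4.91% of all genes. At a q-value under 1e-05, promoter H3K4me1 in p42-ERT2 cells fell to 10 genes, against 19.5% of all genes. At that q-value, distal peaks were gained near 6 and lost near 5 genes in p42-ERT2 cells, against 11.3% and 23.6% of all. In p30-ERT2 cells they were gained near 12 and lost near 3, against 19.4% and 16%. The splits by untreated fold and by ISRE core, the heights of distal peaks, the places gained in both lines and the appearance counts under alternatives were chosen after seeing the data. Depth is unknown, so a missing peak is not an absent mark, and the cause of each shift was not tested.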
